A study of Mus musculus with 2 samples.

Results

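The genes described here are 37 genes of the B lymphocyte lineage, picked by symbol from the 15576 genes of an RNA sequencing table of mouse bone marrow-derived macrophages, cells that are cultured from marrow until they become macrophages. All 37 symbols had a row. The study holds 2 libraries: DCA, from macrophages treated with 100 µM deoxycholic acid, a secondary bile acid, for 24 h, and NC, from macrophages collected without it. Both are from wild-type mice, and the labels give neither the vehicle of NC nor the age of the mice, nor make clear whether the cells were collected at the end of treatment or a day later. The B-cell receptor chain genes Cd79a and Cd79b, the kinase gene Blk and the transcription factor gene Pax5 were higher in DCA, with read ratios between 1.22 and 1.42. Cd22 and Ms4a1, surface protein genes of mature B cells, had read ratios of 1.09 and 1.19. The surrogate light chain genes of pre-B cells did not exceed 0.418 FPKM (fragments per kilobase of transcript per 1e6 fragments) in either library. Of the same stage, Rag2 and Lef1 did not exceed 0.435 FPKM, and Rag1, Dntt and Vpreb3 lay between 3.19 and 9.80 FPKM. Il7r of that stage had 20.6 FPKM in DCA and 21.1 in NC. With 1 library per group there was no test, and every difference below is between these libraries and has no replicate check.

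B cells are made in the bone marrow in steps. Pro-B cells cut and join their immunoglobulin heavy chain genes with the RAG recombinase, and pre-B cells carry the new heavy chain together with a surrogate light chain in a pre-B-cell receptor. Later cells bear a full B-cell receptor, mature in the spleen, and may end as antibody-secreting plasma cells. Macrophages are not part of this lineage, but they use some of the same signalling proteins, so B-lineage transcripts in a marrow culture can come from B cells, from other marrow cells or from the macrophages themselves. In a bulk library, fewer cells of a type and less RNA per cell cannot be told apart.

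The members were divided by the stage at which they are best known: 9 genes of pro-B and pre-B cells, 17 pan-B genes, 9 genes of mature B cells and 2 of plasma cells. Of the pan-B genes, 6 (Btk, Blnk, Cd37, Cd72, Pou2f2 and Cd38) are also known in macrophages or other myeloid cells. The deposited values are FPKM, which count the reads of a gene per kilobase of its length and per 1e6 reads sequenced (1 M), and behind them stood 56.6 M reads for DCA and 59.2 M for NC. Whole reads were rebuilt from the FPKM for 36 of the 37 members, all but Cr2. Ratios below are reads of DCA over NC, scaled to these totals, with exact 95% Clopper-Pearson intervals, which cover counting error only. Levels are compared between genes as rebuilt reads per kilobase of annotated exon and 1e6 reads, called the length-corrected level.

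Sequences at the surrogate light chain genes are shown first, because these genes had the fewest reads of the pre-B-cell receptor and because Vpreb1 and Vpreb2 are nearly the same. Vpreb1 (ENSMUSG00000059305) lies at chr16:16868403-16870843 on the minus strand and Vpreb2 (ENSMUSG00000059280) at chr16:17980428-17981273 on the plus strand, both in GRCm38. Their annotated coding sequences are each 429 bases long and differ at 9 bases, an identity of 97.9%. The stretch from base 238 to base 387 of the coding sequence holds 6 of those differences, given in capitals.
Vpreb1: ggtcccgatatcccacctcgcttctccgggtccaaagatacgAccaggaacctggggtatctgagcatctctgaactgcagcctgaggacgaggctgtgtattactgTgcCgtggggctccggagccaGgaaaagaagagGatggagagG
Vpreb2: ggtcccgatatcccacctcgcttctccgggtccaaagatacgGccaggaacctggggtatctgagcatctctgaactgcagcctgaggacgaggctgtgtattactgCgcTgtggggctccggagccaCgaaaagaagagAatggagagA
Over the whole annotated transcripts, 32.8% of the 50-base windows of Vpreb2 were also found in Vpreb1, and 14.7% of its 100-base windows. No source used here gives the read length, and reads that lie in shared windows cannot be assigned to either gene.

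The promoters of Vpreb1 and Igll1, which lie near each other, and of Vpreb3 and Cd79a are shown next to let the quiet and the well-measured genes be compared. Each runs from 250 bases before to 50 after the RefSeq start in GRCm38.p6, in the direction of transcription, with matches to 3 motifs in capitals: the core of the EBF1 motif (TCCC and GGGA with 2 bases of any kind between them), the octamer that Oct factors bind (ATGCAAAT) and an E-box (CAGGTG), each searched on both strands.
Vpreb1, chr16:16869206-16869505, minus strand: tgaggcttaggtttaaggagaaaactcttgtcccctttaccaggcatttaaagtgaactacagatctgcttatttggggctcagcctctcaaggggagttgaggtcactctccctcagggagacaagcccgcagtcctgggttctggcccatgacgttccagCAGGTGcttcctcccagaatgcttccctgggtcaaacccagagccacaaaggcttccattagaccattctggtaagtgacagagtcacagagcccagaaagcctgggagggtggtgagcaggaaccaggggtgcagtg
Igll1, chr16:16863936-16864235, minus strand: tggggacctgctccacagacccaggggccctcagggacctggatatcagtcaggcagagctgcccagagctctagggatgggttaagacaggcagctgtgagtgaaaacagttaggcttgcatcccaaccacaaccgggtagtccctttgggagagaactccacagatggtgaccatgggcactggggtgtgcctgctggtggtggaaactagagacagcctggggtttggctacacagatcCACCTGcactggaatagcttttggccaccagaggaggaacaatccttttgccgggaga
Vpreb3, chr10:75948050-75948349, plus strand: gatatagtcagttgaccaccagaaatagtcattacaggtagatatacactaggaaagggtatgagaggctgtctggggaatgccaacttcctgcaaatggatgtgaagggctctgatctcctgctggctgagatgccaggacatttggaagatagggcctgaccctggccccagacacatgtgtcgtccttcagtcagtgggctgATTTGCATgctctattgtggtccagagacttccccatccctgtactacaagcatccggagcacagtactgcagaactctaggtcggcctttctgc
Cd79a, chr7:24897247-24897546, plus strand: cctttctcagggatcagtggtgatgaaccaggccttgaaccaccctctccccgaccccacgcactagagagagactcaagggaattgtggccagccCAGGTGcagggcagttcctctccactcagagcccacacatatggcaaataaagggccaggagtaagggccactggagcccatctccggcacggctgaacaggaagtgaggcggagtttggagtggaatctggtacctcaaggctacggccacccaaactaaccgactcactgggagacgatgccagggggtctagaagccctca
The Vpreb1 promoter held an E-box that began 88 bases before the start, the Igll1 promoter one 8 bases before it, and the Cd79a promoter one 154 bases before it. The Vpreb3 promoter held an octamer 45 bases before the start. RefSeq promoters were found for 30 of the members, with 37 windows in all. An E-box was present in 18 of these 37 windows (48.6%), and in 20.2% of the 32851 promoter windows of the table. The octamer was present in 2 of the 37, those of Vpreb3 and Blnk, and in 1.74% of all windows. The EBF1 core was present in 1 of the 37, that of Cd22, and in 0.904% of all windows. A match is a stretch of letters and not a measured binding site.

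Reads of genes that define B cells were looked at first. These genes are members of the list, so they give no independent check of its label. Cd79a, the receptor chain found across the B lineage, had 6318 reads in DCA cells and 5212 in NC cells, and Ms4a1, a surface protein of later B cells, had 7114 reads in DCA cells and 6257 in NC cells. Transcripts that define B cells were thus present in both libraries. The heavy chain constant gene Ighm and the light chain constant gene Igkc had no row under these symbols, so they could not be analysed.

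**Figure D1:**
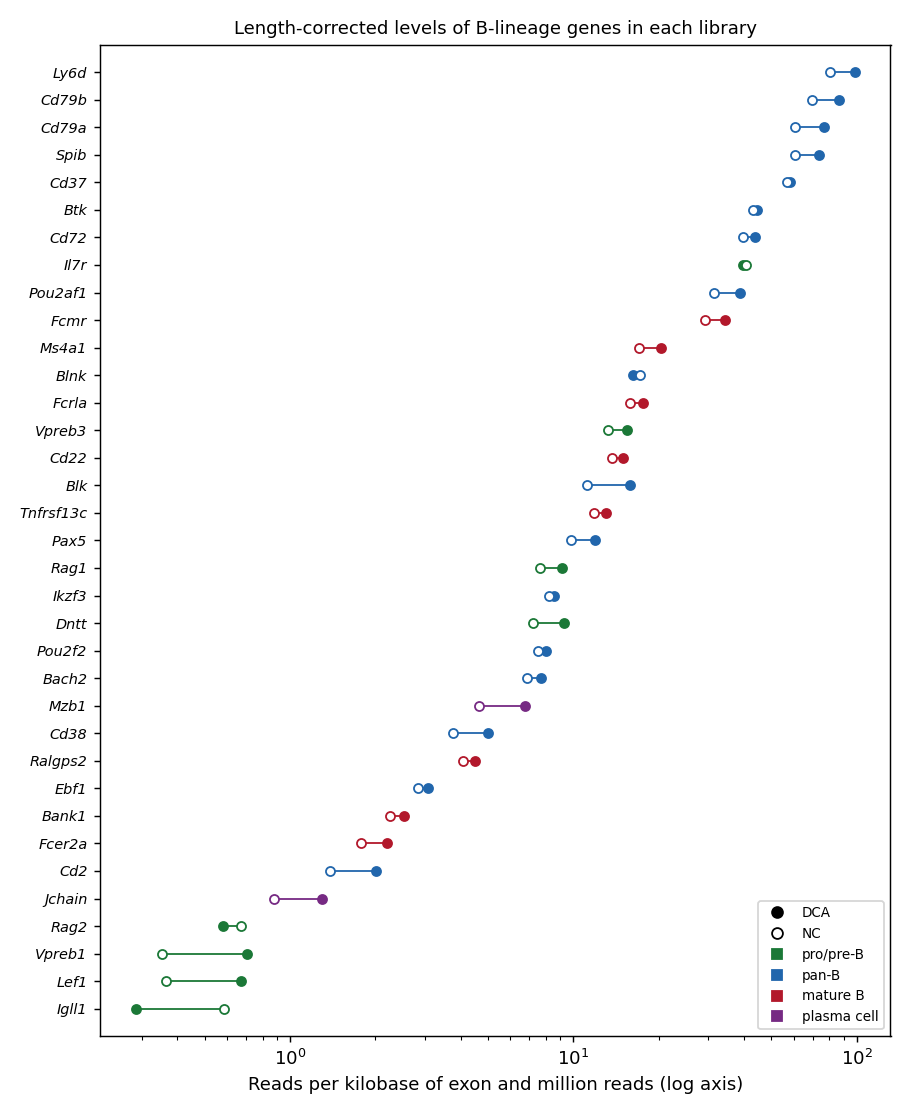
Length-corrected level of 35 members in DCA (filled) and NC (open), as reads per kilobase of exon and 1e6 reads on a log axis, coloured by stage. Ly6d is at the top with 98.4 in DCA cells and 80.3 in NC cells, and Igll1 is at the bottom with 0.286 in DCA cells and 0.585 in NC cells; Vpreb2, at 0 in both libraries, and Cr2, without rebuilt reads, are not drawn.

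The length-corrected levels spanned a wide range that did not follow the order of the stages. Ly6d, a surface protein that marks lymphoid progenitors biased to the B lineage, was highest, at 98.4 in DCA cells and 80.3 in NC cells. The B-cell receptor chains followed, Cd79b at 86.5 in DCA cells and 69.9 in NC cells and Cd79a at 76.7 in DCA cells and 60.4 in NC cells. These lay at the 95.3 and 94.4 percentile of all genes whose mean FPKM reached 1. Spib, an ETS transcription factor of B cells and plasmacytoid dendritic cells, was at 73.7 in DCA cells and 60.7 in NC cells. The pro-B and pre-B genes, by contrast, ran from Il7r, the receptor chain for interleukin 7, at 39.7 in DCA cells and 40.6 in NC cells, down to no reads at all for Vpreb2. The mature B-cell genes with rebuilt reads ran from Fcmr at 34.3 in DCA cells and 29.1 in NC cells to Fcer2a at 2.20 in DCA cells and 1.78 in NC cells.

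Within the pro-B and pre-B group, levels of the recombination genes were uneven. Rag1, which encodes the cutting subunit of the recombinase, had 3409 reads in DCA cells and 2986 in NC cells, a length-corrected level of 9.12 in DCA cells and 7.63 in NC cells. Its partner Rag2 had 112 reads in DCA cells and 136 in NC cells, a level of 0.578 in DCA cells and 0.671 in NC cells. Rag1 was thus 15.8 times the level of Rag2 in DCA and 11.4 times in NC. Dntt, the polymerase that adds bases at the joints without a template, had 1206 reads in DCA cells and 977 in NC cells, at levels of 9.30 in DCA cells and 7.20 in NC cells. Rag1 and Dntt were therefore close in level, and Rag2 well below both.

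Of the surrogate light chain itself, little was measured. Igll1, the constant-like part, had 35 reads in DCA cells and 75 in NC cells. Vpreb1, a variable-like part, had 48 reads in DCA cells and 25 in NC cells. Vpreb2 had 0 reads in both libraries. Over its whole exon length, 3 reads would be a level of 0.0699 in DCA cells and 0.0668 in NC cells. Reads in windows shared with Vpreb1 cannot be assigned to Vpreb2, so its level could lie above these values. Vpreb3, a related protein that binds immunoglobulin chains inside early B cells, stood far above Igll1, Vpreb1 and Vpreb2, with 751 reads in DCA cells and 673 in NC cells. Its length-corrected level was 15.5 in DCA cells and 13.2 in NC cells, while that of Vpreb1 was 0.708 in DCA cells and 0.352 in NC cells.

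The differences between the libraries were then compared by stage. A gene entered the counts if its mean FPKM was at least 1, which 29 of the 37 members and 9656 genes in all did. Vpreb1, Vpreb2, Igll1, Rag2, Lef1, Cr2, Fcer2a and Jchain did not, and Cd2 passed with a value under 1 in NC, so the 29 are not the whole group. Of the 29, 27 were higher in DCA by any amount, where 53.5% of all 9656 genes were. On the log2(FPKM + 1) scale, which understates the ratios of low genes, 10 of the 29 (34.5%) were at least 1.2-fold higher in DCA, against 2.11% of all genes, and 0 were at least 1.2-fold lower, against 0.715% of all genes. The median difference of the 29 was 0.20, and that of all genes was 0.0067. The read ratio was at least 1.2 for 11 of the 29, against 3.98% of the 9371 genes with rebuilt reads, and at most 1/1.2 for 0 of them, against 2.03%. Its interval lay above 1 for 25 of the 29, against 25.6% of genes, and below 1 for 1 of them, against 20.0% of genes.

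**Figure D2:**
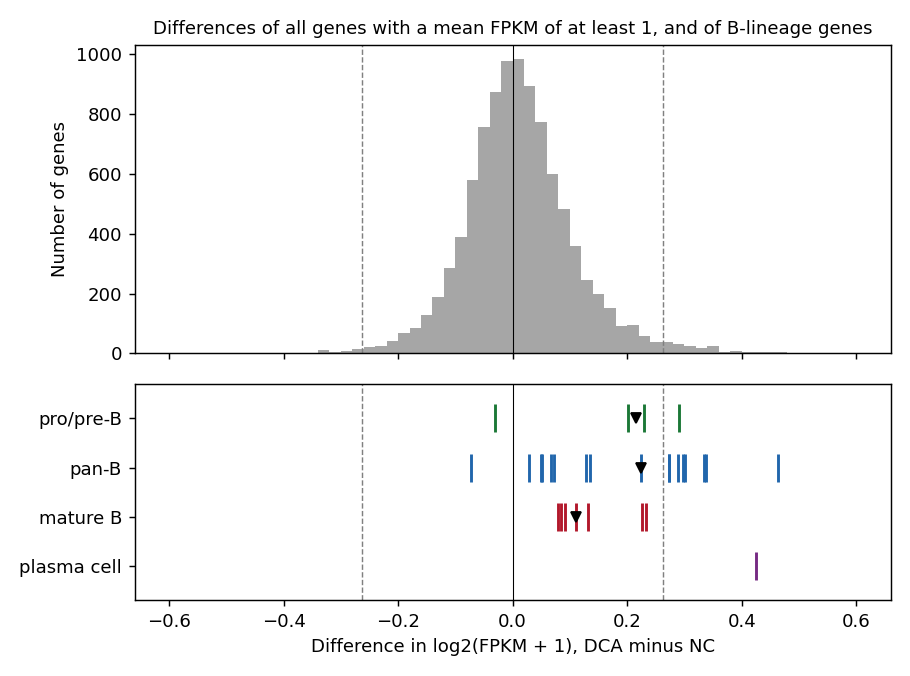
Top, number of genes by difference in log2(FPKM + 1), DCA minus NC, for the 9656 genes whose mean FPKM reached 1 (48 lie outside the bins); bottom, the 29 members by stage as vertical ticks, with a triangle at the median where a stage has more than a single gene and dashed lines at 1.2-fold. The pan-B median lies at 0.22 and the mature B median at 0.11, while the median of all genes is 0.0067.

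By stage, 8 of 17 pan-B genes, 1 of 4 pro-B and pre-B genes and 0 of 7 mature B genes were at least 1.2-fold higher in DCA. So was Mzb1, the plasma cell gene that passed the filter. Of all 9656 genes, 2.11% were. The 8 pan-B genes include Cd2, which passed the filter with a value under 1 in NC. The median differences were 0.21 for pro-B and pre-B genes, 0.22 for pan-B genes and 0.11 for mature B genes. Summed over the members with rebuilt reads, the pro-B and pre-B genes had 16356 reads in DCA cells and 16257 in NC cells, a read ratio of 1.05 (1.03 to 1.08), most of them from Il7r. The pan-B genes had 92258 reads in DCA cells and 85245 in NC cells, a read ratio of 1.13 (1.12 to 1.14). The mature B genes had 22526 reads in DCA cells and 20672 in NC cells, a read ratio of 1.14 (1.12 to 1.16). The 3 sums lay within 1.05 and 1.14, although the stages held different shares of genes past 1.2-fold, and with single libraries no difference between stages could be tested.

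**Figure D3:**
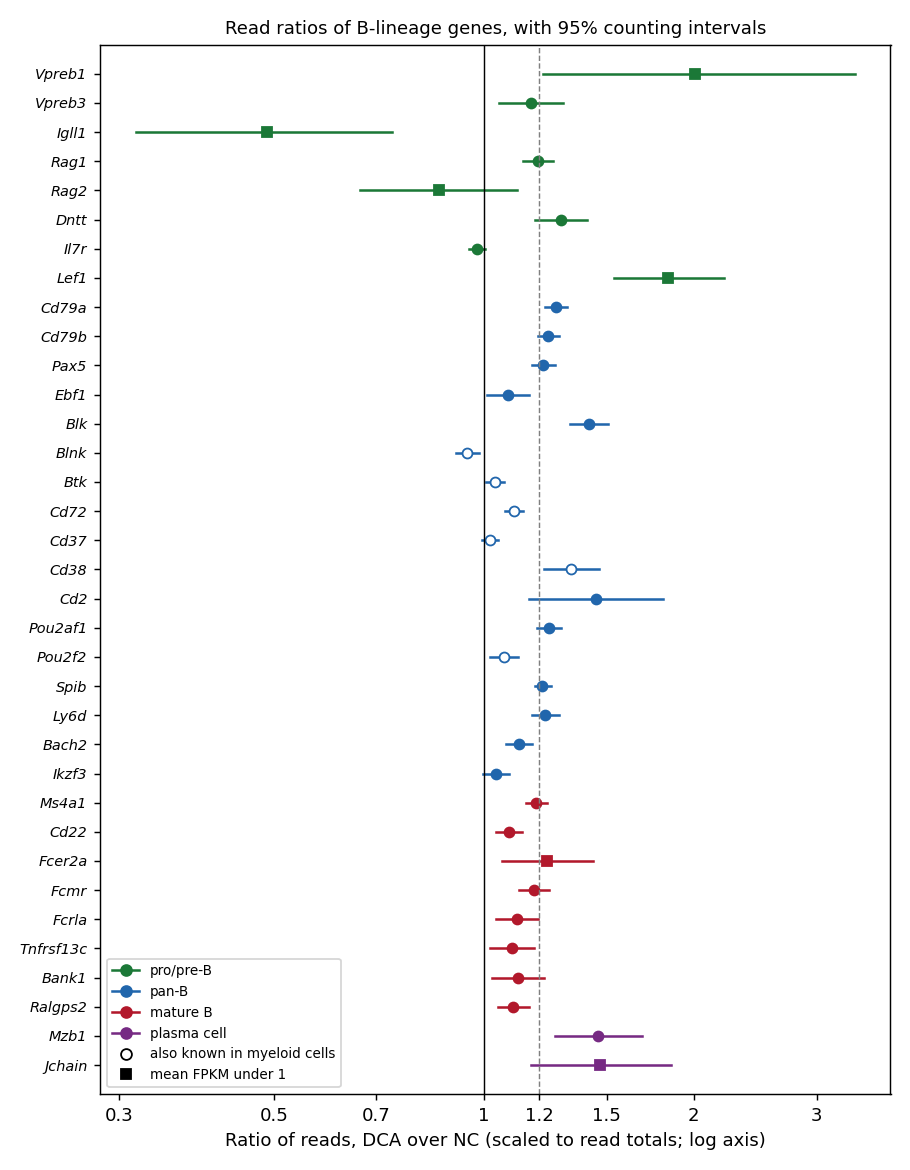
Ratio of reads, DCA over NC, of 35 members on a log axis with 95% counting intervals, by stage; open symbols are genes also known in myeloid cells, squares have a mean FPKM under 1, and the dashed line is at 1.2. Blk at 1.42 and Mzb1 at 1.46 lie right of the dashed line, while Igll1, Rag2, Il7r and Blnk lie left of 1.

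Among the pro-B and pre-B genes, Dntt had 4.13 FPKM in DCA cells and 3.19 in NC cells, a read ratio of 1.29 (1.19 to 1.41). Rag1 had 9.12 FPKM in DCA cells and 7.63 in NC cells, a read ratio of 1.195 (1.14 to 1.26). Vpreb3 had 9.80 FPKM in DCA cells and 8.40 in NC cells, a read ratio of 1.17 (1.05 to 1.298). These genes were higher in DCA, with intervals that excluded equality. Il7r, which T cells and innate lymphoid cells also carry, had 20.6 FPKM in DCA cells and 21.1 in NC cells. Its read ratio was 0.978 (0.952 to 1.004), an interval that includes equality.

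The low genes of that group did not share a direction. Igll1 had 0.204 FPKM in DCA cells and 0.418 in NC cells, a read ratio of 0.488 (0.317 to 0.739). Vpreb1 had 0.360 FPKM in DCA cells and 0.179 in NC cells, a read ratio of 2.01 (1.22 to 3.40). The exons of Vpreb1 share 108 bases with those of Top3b on the opposite strand. Top3b had 3671 reads in DCA cells and 3598 in NC cells, and its part in the few Vpreb1 reads was not tested. The products of the neighbouring genes Igll1 and Vpreb1 join in the pre-B-cell receptor, yet their ratios lay on opposite sides of 1. Rag2 had a ratio of 0.862 (0.665 to 1.12), an interval that includes equality and lies below that of Rag1. Its exons share 208 bases with B230118H07Rik on the opposite strand, which had a ratio of 0.762 (0.676 to 0.859), and those of Rag1 share 80 bases with the same gene on the same strand. Lef1, a factor of the Wnt pathway found in pro-B cells and T cells, had 334 reads in DCA cells and 190 in NC cells, a read ratio of 1.84 (1.54 to 2.21). An antisense gene that was not analysed here covers 1208 of its exonic bases, and whether reads were counted by strand is not stated.

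The B-cell receptor chains were both higher in DCA. Cd79a, the signalling chain alpha (ENSMUSG00000003379, chr7:24897381-24902197, plus strand), had 76.7 FPKM in DCA cells and 60.4 in NC cells, a read ratio of 1.27 (1.22 to 1.32). Cd79b, its partner, had 47.1 FPKM in DCA cells and 38.1 in NC cells, a read ratio of 1.24 (1.196 to 1.28). The intervals of the chains overlap. Blk, a Src-family kinase that acts next to them (ENSMUSG00000014453, chr14:63372836-63417037, minus strand), had 14.5 FPKM in DCA cells and 10.3 in NC cells. Its ratio of 1.42 (1.33 to 1.51) was the highest of the pan-B genes except for Cd2.

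Transcription factors of the lineage differed by unequal amounts. Pou2af1, a coactivator that binds Oct factors, had 25.4 FPKM in DCA cells and 20.5 in NC cells, a read ratio of 1.24 (1.19 to 1.29). Pax5, which holds cells to the B lineage, had 4.12 FPKM in DCA cells and 3.38 in NC cells, a read ratio of 1.22 (1.17 to 1.27). Spib had 47.6 FPKM in DCA cells and 39.2 in NC cells, a read ratio of 1.21 (1.18 to 1.25). These intervals overlap that of Cd79b. Ebf1, which acts before Pax5 in B-cell specification, had 1.70 FPKM in DCA cells and 1.57 in NC cells, a read ratio of 1.08 (1.01 to 1.16), and its interval lay below the estimate of Pax5. Bach2, a repressor of plasma cell fate, had a ratio of 1.13 (1.08 to 1.17), and Ikzf3, an Ikaros family factor, 1.04 (0.997 to 1.09). The octamer-binding factor Pou2f2 had a ratio of 1.07 (1.02 to 1.12). At the surface, Ly6d had 98.4 FPKM in DCA cells and 80.3 in NC cells, a read ratio of 1.22 (1.17 to 1.28), and the adhesion receptor Cd2 had 198 reads in DCA cells and 143 in NC cells, a read ratio of 1.45 (1.16 to 1.81).

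Of the 6 members also known in myeloid cells, 5 had ratios between 0.948 and 1.11, and Cd38 stood higher. Blnk, the adaptor that links Syk to Btk, had 11.7 FPKM in DCA cells and 12.4 in NC cells, a read ratio of 0.948 (0.914 to 0.983), and was the only one of the 29 whose interval lay below 1. Btk, the kinase, had 18.8 FPKM in DCA cells and 18.1 in NC cells, a read ratio of 1.04 (1.01 to 1.07). The tetraspanin Cd37 had a ratio of 1.02 (0.995 to 1.05). Cd72, an inhibitory co-receptor, had a ratio of 1.11 (1.07 to 1.14), and 41.6% of its exon sequence is shared with exons of Tesk1 on the opposite strand, which had a ratio of 0.859 (0.815 to 0.906). Cd38, an ectoenzyme that consumes NAD, had 4.69 FPKM in DCA cells and 3.52 in NC cells, a read ratio of 1.34 (1.22 to 1.46). Summed, the 6 genes had 38393 reads in DCA cells and 38560 in NC cells, a read ratio of 1.04 (1.03 to 1.06). The other 11 pan-B genes had 53865 reads in DCA cells and 46685 in NC cells, a read ratio of 1.21 (1.19 to 1.22). Of these 11, 7 were at least 1.2-fold higher in DCA on the log2(FPKM + 1) scale, against 2.11% of all genes. The 7 include Cd2, which passed the filter with a value under 1 in NC. The division was drawn from known expression, with earlier results of these data known.

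The 7 mature B-cell genes that passed the filter were higher in DCA, by unequal amounts. Ms4a1, the surface protein CD20, had 14.5 FPKM in DCA cells and 12.2 in NC cells, a read ratio of 1.19 (1.15 to 1.23). Fcmr, the Fc receptor for IgM, had 19.3 FPKM in DCA cells and 16.4 in NC cells, a read ratio of 1.18 (1.12 to 1.24). Bank1, a scaffold of receptor signalling, Fcrla, an Fc receptor-like protein inside the cell, Ralgps2, an exchange factor for Ral, Tnfrsf13c, the receptor for the survival factor BAFF, and Cd22, an inhibitory lectin, had ratios between 1.09 and 1.12. The intervals of all 7 lay above 1. Of all genes that passed the filter, 53.5% were higher in DCA, and the interval lay above 1 for 25.6% of those with rebuilt reads. Fcer2a, the low-affinity IgE receptor, had 384 reads in DCA cells and 326 in NC cells, a read ratio of 1.23 (1.06 to 1.43). Cr2, the complement receptor of mature B cells, had 0.124 FPKM in DCA cells and 0.107 in NC cells, and its depth is unknown.

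The plasma cell genes had few reads. Mzb1, a helper of IgM assembly in the endoplasmic reticulum, had 4.26 FPKM in DCA cells and 2.92 in NC cells, built from 466 reads in DCA and 334 in NC, and a ratio of 1.46 (1.27 to 1.69). Of its exonic bases 57.2% also lie in an annotated exon of another gene, SPATA24, on the same strand, which was not analysed here. Jchain, which joins IgA and IgM into multimers, had 184 reads in DCA cells and 131 in NC cells, a read ratio of 1.47 (1.17 to 1.85). Both intervals are wide and overlap those of Blk and of the mature B gene Fcer2a, and that of Jchain also overlaps that of Ms4a1.

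Other genes of the pathway that passed the filter were counted on lists of their own, with 1.2-fold taken on the log2(FPKM + 1) scale. Of 22 B-cell receptor signalling genes, most of which macrophages also express, 15 were higher and 7 lower in DCA, and 0 reached 1.2-fold in either direction. Their median read ratio was 1.015, from Vav1 at 0.962 (0.939 to 0.985) to the kinase gene Syk at 1.08 (1.06 to 1.097). Of 9 genes that rejoin DNA ends after V(D)J cutting, 6 were higher and 3 lower, and 0 reached 1.2-fold. Lig4, the ligase of that step, had a ratio of 0.824 (0.748 to 0.908), and Hmgb2, a DNA-bending protein that aids the recombinase, 1.096 (1.06 to 1.13). Xrcc5, a Ku subunit, had the largest difference of the list, with 1.22 FPKM in DCA cells and 0.934 in NC cells and no rebuilt reads. Of 7 other B-cell genes, 7 were higher, and the interval lay above 1 for 6 and included it for 1. Of the 7, 1 passed 1.2-fold: Cxcr5, the chemokine receptor of B-cell follicles. It had 1.43 FPKM in DCA cells and 0.991 in NC cells, so it passed the filter with a value under 1 in NC. Its 729 reads in DCA cells and 529 in NC cells gave a read ratio of 1.44 (1.29 to 1.62). H2-Ob, which tunes peptide loading of MHC class II in B cells, had a ratio of 1.21 (1.14 to 1.28). Of 10 other early lymphoid and progenitor genes, 9 were higher and 0 reached 1.2-fold, with Cd24a at 1.13 (1.098 to 1.15) and Spn at 1.11 (1.08 to 1.15), and Cd93 was the lower one, with 179 FPKM in DCA cells and 183 in NC cells. Of 4 other plasma cell genes, 3 were higher, and 1 passed 1.2-fold: Irf4, a factor of plasma cell fate that myeloid cells also use, at 1.24 (1.18 to 1.297). Xbp1, which builds the secretory apparatus, was the lower one, with 35.95 FPKM in DCA cells and 37.2 in NC cells. Of the listed plasma cell genes that did not pass the filter, chosen after their values were seen, Prdm1 had a ratio of 0.986 (0.857 to 1.14) and Tnfrsf17 had 0 reads in DCA cells and 7 in NC cells.

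**Figure D4:**
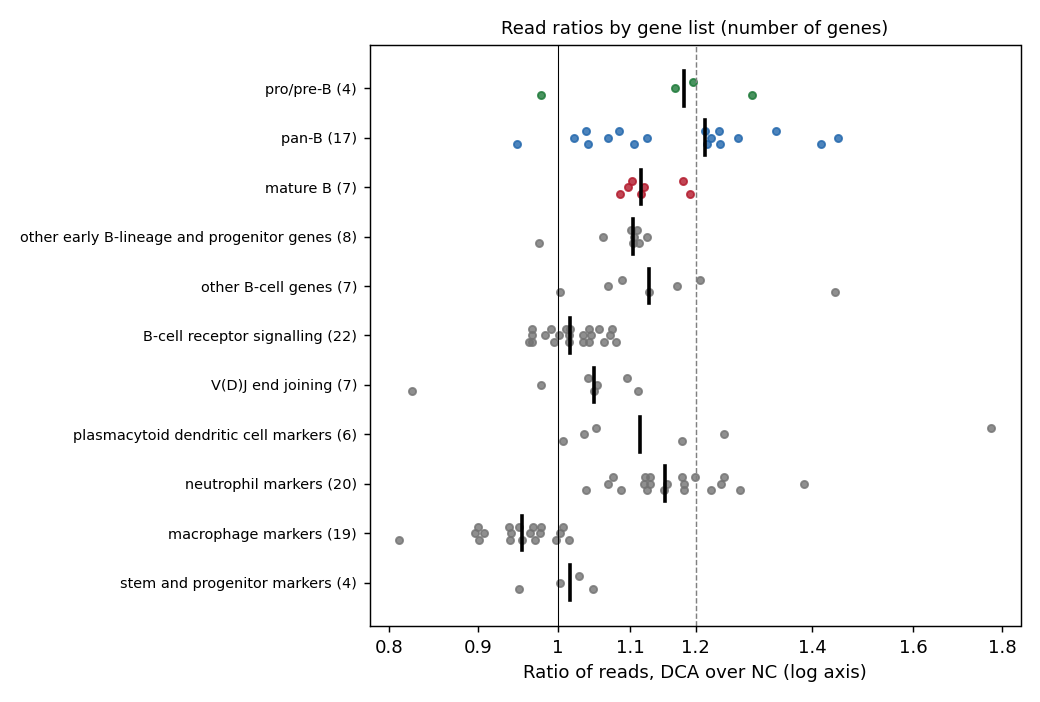
Ratio of reads, DCA over NC, on a log axis for each gene with rebuilt reads whose mean FPKM reached 1, by list, with the number of genes in brackets, a bar at the median and a dashed line at 1.2. The neutrophil median of 1.15 and the pan-B median of 1.21 lie right of 1, the receptor signalling median of 1.015 near it, and the macrophage median of 0.953 left of it.

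Marker lists of other cells were measured in the same libraries, and they went different ways. For comparison, 53.5% of all 9656 genes were higher in DCA and 2.11% at least 1.2-fold higher. Neutrophil markers were higher in DCA in 20 of 20 genes, with 5 of the 20 (25.0%) at least 1.2-fold higher, a median read ratio of 1.15 and 4540 summed FPKM in DCA against 3850 in NC. Macrophage markers were lower in 16 of 19 tested genes, with a median ratio of 0.953, and the ratio of summed reads over the 20 listed was 0.971 (0.969 to 0.973). Plasmacytoid dendritic cells, which share Spib, Ly6d and other members with B cells, had markers higher in 7 of 7 tested genes. Of the 7, 2 (28.6%) were at least 1.2-fold higher, and the median difference in log2(FPKM + 1) was 0.053. Among the 6 with rebuilt reads the median ratio was 1.115, and the intervals of 4 lay above 1 and those of 2 included it. The 9 listed markers of these cells summed to 100.9 FPKM in DCA cells and 92.1 in NC cells. Their defining gene Siglech had 6797 reads in DCA cells and 5713 in NC cells, a read ratio of 1.25 (1.202 to 1.29), with an interval that overlaps those of Cd79b and Ly6d. The largest difference of that list was at Cox6a2, whose exons overlap another gene, with 493 reads in DCA cells and 291 in NC cells, a read ratio of 1.77 (1.53 to 2.06). Tested stem and progenitor markers had a median ratio of 1.02, and the intervals of 4 of 4 included 1. Of 17 T-cell markers with a row, Cd4 and Cd28 passed the filter, Cd4 with 1.26 FPKM in DCA cells and 0.831 in NC cells. Their ratios were 1.52 (1.31 to 1.75) and 0.988 (0.951 to 1.03), and the 17 summed to 18.8 FPKM in DCA cells and 17.6 in NC cells, most of it from Cd28. The low T-cell genes did not share a direction. The defining T-cell gene Cd3e had 7 reads in DCA cells and 16 in NC cells, Cd5 had 15 in DCA cells and 66 in NC cells, and Cd3d had 14 in DCA cells and 0 in NC cells. Cd8a had 458 reads in DCA cells and 266 in NC cells, a read ratio of 1.802 (1.55 to 2.10). Lck and Lat, signalling genes of T cells whose exons overlap other genes, had ratios of 1.57 (1.31 to 1.89) and 2.01 (1.51 to 2.70). Apart from Cd4, Cd28 and Cd3e, these were chosen after their values were seen. Of the innate lymphoid list, Klrd1 had 1089 reads in DCA cells and 890 in NC cells, a read ratio of 1.28 (1.17 to 1.401), and Nkg7 had 231 reads in DCA cells and 197 in NC cells. The 11 genes of that list with a row summed to 2717 reads in DCA cells and 1716 in NC cells, a read ratio of 1.66 (1.56 to 1.76). Among its genes under the filter, chosen after their values were seen, Rora had 743 reads in DCA cells and 168 in NC cells. A large part of the excess in the sum came from Rora. Eomes had 0 reads in DCA cells and 17 in NC cells, and the exons of both genes overlap other genes. Stromal markers, which could accompany Ebf1, summed to 0.436 FPKM in DCA cells and 0.310 in NC cells, with Pdgfra and Dcn at 0. The part of these cells in the differences of the B-lineage genes was not tested.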

How the data were processed

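RNA sequencing gave 1 library each of DCA and NC. The authors deposited FPKM for 15576 genes. The submitters' processing notes name GRCm38, the aligner STAR 2.5.0c and the counter HTSeq 0.6.0 among other tools; they state no gene length, strand setting or filter. With the summed length of a gene's annotated transcripts (GENCODE vM21) as its length, the FPKM of 96.4% of 11794 genes with under 5000 reads converted to whole numbers in each library (tolerance 0.05). Deposited FPKM of genes with many transcripts are therefore too low, and levels were compared per kilobase of merged exons. Differences were taken in log2(FPKM + 1), with a pseudocount of 1, for genes whose mean FPKM reached 1; a limit of 1.2-fold was used. PCR copies are not independent molecules, so intervals cover counting error only. The rebuilding was tested on simulated data. Members, stages and lists were chosen with earlier results of these data known. All members are named; of other lists, up to 2 tested genes in each direction with the largest differences could be named, as could fixed defining markers, of which 1 is not reported here; other genes named were chosen after their values were seen. Among alternatives, pseudocounts, filters, scalings and overlapping genes were varied. Python 3.11.15, numpy 2.4.6, pandas 2.3.3 and scipy 1.17.1 were used.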

Additional observations from a re-analysis of the deposited data

How the results depend on the processing

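Among the pseudocounts, filters, scalings and gene sets tried, no median of the B-lineage genes or of a stage turned negative. Of 265 values of single genes, 0 turned sign. On the log2 scale, 7 moved by more than the distance from the middle of their counting interval to its end. Of these 7, 6 were with pseudocount 5. With pseudocount 5, the median difference of the tested members was 0.105 in place of 0.202, 4 in place of 10 passed the limit of 1.2-fold higher, and the pan-B median was 0.105. With all genes kept whatever their level, the median over the 37 members was 0.135. With a mean FPKM of at least 5, which left 18 members, 6 passed that limit. Without genes whose exons overlap another gene, the pan-B median was 0.282; the cause was not tested. Under these last 2 settings no plasma cell gene was left. Leaving out the 6 members known in myeloid cells, chosen after seeing the data, gave a median of 0.226 and 9 genes at least 1.2-fold higher. No paired analysis was possible because each group has 1 library. Depth limits Vpreb1, Vpreb2, Igll1, Rag2 and Jchain most.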
